A study of Mus musculus with 6 samples.

Results

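Autophagy and lysosome genes, 46 of the 21960 genes in the deposited counts, were compared between p140Cap and mock TuBo cells. They were given by symbol and hold 3 regulators, 25 autophagosome genes (from initiation kinases to cargo receptors), 4 lysosome membrane genes and 14 lysosomal enzyme genes, among which the saposin precursor gene Psap is counted. RNA-Seq was made from TuBo cells, an established line grown out of a BALB/c-MMTV-NeuT mammary tumor. In that mouse the MMTV promoter drives an activated rat Her2/neu oncogene. The 3 mock libraries come from control cells, given as wt in the labels, and the 3 p140Cap libraries come from cells that carry p140Cap cDNA in a retroviral pBabe-puro vector, were selected with puromycin and were pooled from clones grown from single cells. The vector carried by mock cells is not stated, and the labels call the samples cell lines in some fields and mice in the design text. Nothing in the sources used here says that the replicates are separate cultures, so p-values measure only the spread between these libraries.

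Autophagy encloses cytoplasm in a double-membraned autophagosome, which then fuses with the lysosome, an acidic organelle whose hydrolases break the content down. The formation of the autophagosome needs a kinase complex, a lipid kinase complex, lipid supply and the coupling of small ubiquitin-like proteins of the Atg8 family (LC3 and GABARAP proteins) to the growing membrane. Many genes of lysosomal enzymes and membrane proteins share a promoter element bound by the related transcription factors TFEB, TFE3 and MITF, which are held in the cytoplasm when the nutrient-sensing kinase complex mTORC1 is active. In mammary tumor cells this route supplies nutrients under stress and turns over membrane receptors.

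Mock libraries held between 33058719 and 75506562 reads on genes and p140Cap libraries between 13770385 and 15364850, so each mock library was deeper. Srcin1, the gene of p140Cap, had 509 to 1192 reads in mock libraries and 30546 to 36989 reads in p140Cap libraries, at a mean level of 2343 CPM (read counts scaled to the TMM-normalized library size) in the latter. Of the 9 epithelial markers, 8 had enough reads for a test, and Krt19 did not. Their summed level was 5900 to 6340 CPM in mock libraries and 6900 to 7180 CPM in p140Cap libraries. The 10 macrophage markers, listed because macrophages are rich in lysosomes, summed to 98.5 to 106 CPM and to 242 to 254 CPM. Nearly all of this was Cd14. The other 9 markers together stayed between 0.681 and 1.12 CPM in every library, and Ptprc, Adgre1, Lyz2 and Mrc1 had 0 reads. Of the 9 fibroblast markers 5 were at 0 (Col1a2, Col3a1, Dcn, Lum and Thy1), with a summed level of at most 10.6 CPM in mock and of 11.4 to 14.2 CPM in p140Cap libraries. The 5 endothelial markers summed to at most 0.923 CPM, with Kdr at 0.

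Expression of autophagy and lysosome genes was compared between p140Cap and mock cells with edgeR's quasi-likelihood test over 11800 genes, with Benjamini-Hochberg adjustment and a threshold of 0.05. All members but Ctsz had enough reads, and 34 of the 45 tested were higher and 3 were lower in p140Cap cells. The background is wide, since 71.1% of all genes tested were called, 35.2% higher and 35.9% lower. The median log2 fold change of the 45 members was 0.37, beside 0.00 over all genes tested, and their values lay between -0.34 and 0.95. The changes were thus mostly modest, and 13 members rose by 0.5 or more on the log2 scale, a size that 15.3% of all genes tested reached. The libraries of the groups did not overlap for 38 of the 45, where 73.4% of all genes tested did not overlap.

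**Figure D1:**
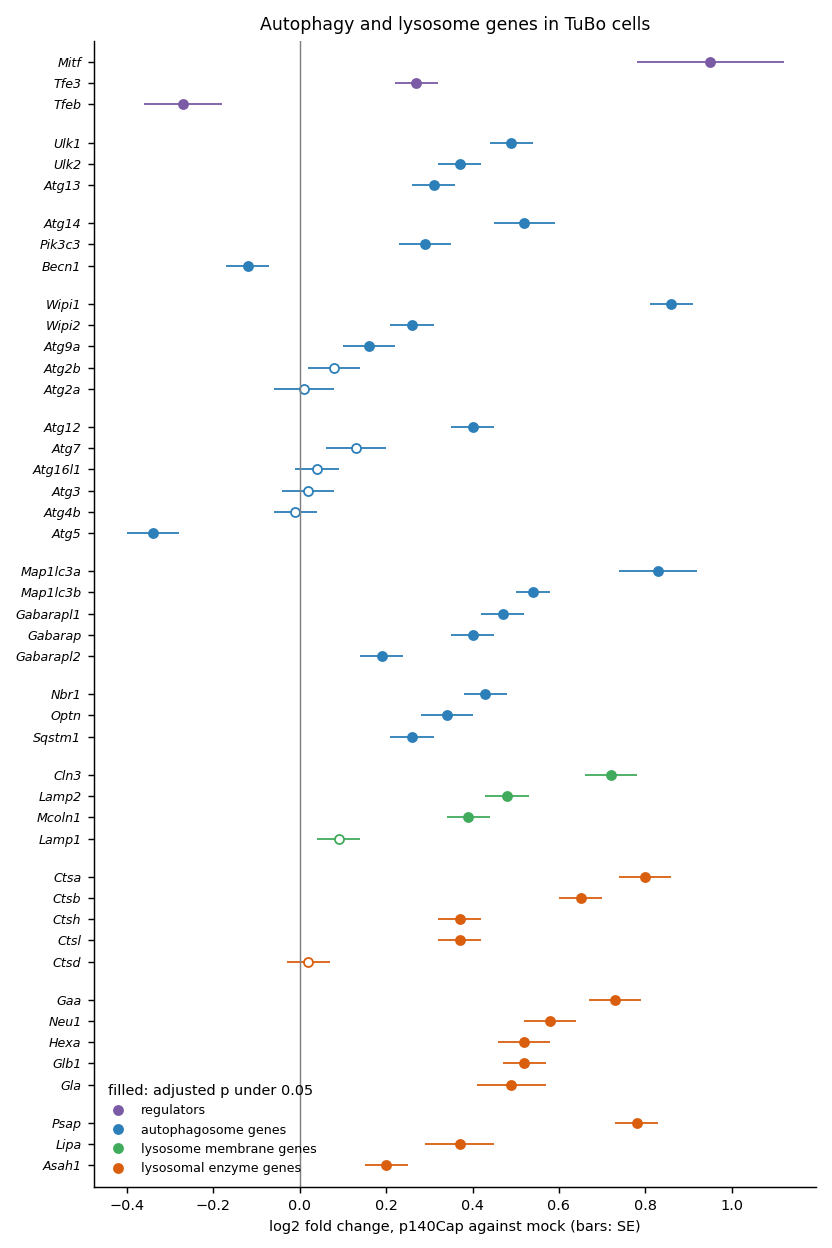
The x axis gives the log2 fold change of the 45 tested members (p140Cap against mock, 3 libraries each) with bars of 1 SE, grouped by role from the regulators at the top to the lipid-degrading enzymes at the bottom. Filled points passed the test, and the lysosomal enzyme genes stand to the right of 0 with Ctsd at 0.02, while the called genes Tfeb, Becn1 and Atg5 and the uncalled Atg4b (-0.01) stand to the left.

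A larger share of the lysosomal enzyme genes than of the autophagosome genes was called higher, and by a larger median. Of the 13 tested enzyme genes, 12 were higher and none was lower (edgeR), and log2 fold changes ran from 0.02 to 0.80 around a median of 0.52. Of the 25 autophagosome genes, 17 were higher, 2 were lower and 6 were not called, with a median of 0.29 and a range of -0.34 to 0.86. The background share of higher genes is 35.2%, against 92.3% of the enzyme genes and 68% of the autophagosome genes. The 4 lysosome membrane genes lay between, with a median of 0.43 and 3 called higher. These are descriptions of short lists, and the difference between the lists was not tested. The shares also depend on which genes were listed. Other lysosomal enzyme genes, described below, had 69.2% higher and a median of 0.27, near the autophagosome members. Other autophagosome genes had 43.8% higher and a median of 0.06.

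Library by library, the enzyme genes stood above the autophagosome genes in all 3 p140Cap libraries. Relative to the mean of the mock libraries, the median enzyme gene stood at 0.48, 0.48 and 0.49 on the log2 scale in the p140Cap libraries, and between -0.03 and 0.05 in the mock libraries. The median autophagosome gene stood at 0.23, 0.31 and 0.30 in the p140Cap libraries and between -0.01 and 0.01 in the mock libraries. Summed over all 14 genes, normalized enzyme reads reached 2838, 2889 and 2967 CPM in mock and 4196, 4413 and 4194 CPM in p140Cap libraries, that is, 2898 ± 64.9 and 4268 ± 126 CPM (SD, n = 3 libraries each). The sum was 1.47 times as high in p140Cap cells, and 1.34 times without Psap, which is the most abundant member by CPM. The 25 autophagosome genes summed to 2153, 2172 and 2185 CPM in mock and 2616, 2663 and 2621 CPM in p140Cap libraries, a ratio of 1.21. Enzyme reads per autophagosome read, not scaled for length, went from 1.34 ± 0.0201 to 1.62 ± 0.0318 (SD, n = 3 libraries each), 1.21 times as high. The rise was smaller without Psap, where the ratio went from 0.861 ± 0.00991 to 0.951 ± 0.00393 (SD, n = 3 libraries each). With or without Psap, all p140Cap libraries lay above all mock libraries.

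**Figure D2:**
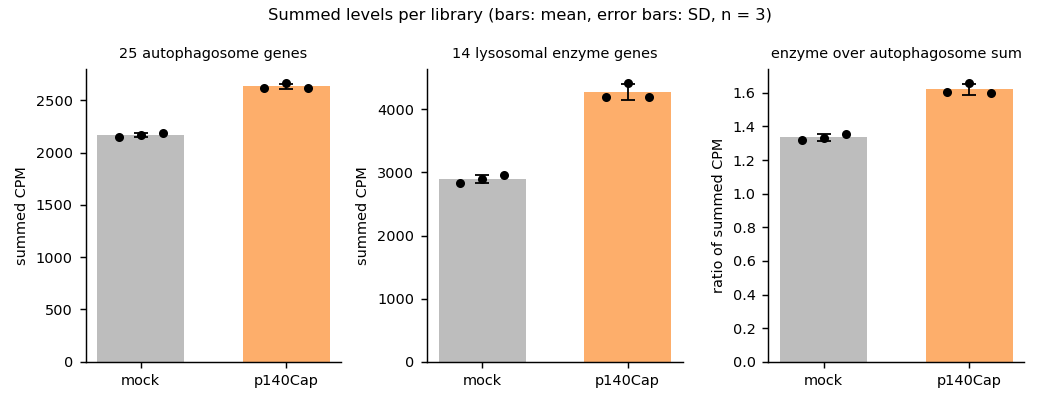
Summed normalized read count (CPM, left and middle panels) of the 25 autophagosome and 14 lysosomal enzyme genes, and the ratio of the sums (right panel), with a point for each library, bars at the mean and error bars of 1 SD (n = 3). In all 3 panels the p140Cap points lie above the mock points, with ratios of the means of 1.21, 1.47 and 1.21.

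Among the lysosomal proteases, Ctsa, Ctsb, Ctsh and Ctsl rose and Ctsd was not called. Ctsa, a serine carboxypeptidase that also protects the sialidase NEU1 and the β-galactosidase GLB1 from degradation, was at 75.3, 76.8 and 79.9 CPM in mock and 133, 146 and 126 CPM in p140Cap libraries. The groups did not overlap, and the log2 fold change was 0.80 (SE 0.06, edgeR adjusted p = 1.76e-09). Ctsb, a cysteine protease with exo- and endopeptidase activity, went from 492, 521 and 511 CPM to 786, 800 and 802 CPM, a log2 fold change of 0.65 (SE 0.05, edgeR adjusted p = 2.38e-09). Ctsh and Ctsl, also cysteine proteases, both had a log2 fold change of 0.37.

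Ctsd, the main aspartic protease of the lysosome, was at 420, 419 and 452 CPM in mock and 429, 444 and 439 CPM in p140Cap libraries. Its groups overlapped, and the log2 fold change was 0.02 (SE 0.05, edgeR adjusted p = 0.672). The number of Ctsb reads per Ctsd read was 1.17, 1.24 and 1.13 in mock and 1.83, 1.80 and 1.83 in p140Cap libraries, a log2 difference of 0.62. The exact permutation test (two-sided) gave p = 0.1, the smallest that 3 against 3 libraries allow, and this pair was picked after its values were seen. Ctsz, a carboxypeptidase, was nearly silent, with 8, 0 and 2 reads in mock and 0, 0 and 3 reads in p140Cap libraries, and was left untested. Annotated exons of another gene on the same strand overlap those of Ctsd (Gm49369) and Ctsl (Gm49230), so their reads are uncertain.

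The 5 genes of enzymes that remove sugars all rose, with log2 fold changes from 0.49 to 0.73. Gaa, the acid α-glucosidase that degrades lysosomal glycogen, was at 87.9, 82.1 and 91.6 CPM in mock and 140, 159 and 136 CPM in p140Cap libraries, with no overlap. Its log2 fold change was 0.73 (SE 0.06, edgeR adjusted p = 1.45e-08). Neu1, the lysosomal sialidase, went from 31.9, 30.5 and 34.4 CPM to 46.5, 50.2 and 47.7 CPM (log2 fold change 0.58, SE 0.06).

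Hexa, the α subunit of β-hexosaminidase A, rose from 31.5, 32.0 and 33.1 CPM to 48.4, 44.1 and 46.2 CPM. Glb1, the β-galactosidase of GM1 ganglioside breakdown, rose from 49.5, 49.9 and 51.9 CPM to 69.8, 77.4 and 69.9 CPM. Both had a log2 fold change of 0.52 and groups that did not overlap, and Glb1 shares exons with Tmppe on its strand. Gla, the α-galactosidase A, had a log2 fold change of 0.49 (SE 0.08).

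Psap, whose protein is cut into the saposins that present sphingolipids to their hydrolases, had the highest level of all members, also per kilobase of annotated exon. It was at 1004, 1023 and 1063 CPM in mock and 1699, 1892 and 1698 CPM in p140Cap libraries, a log2 fold change of 0.78 (SE 0.05, edgeR adjusted p = 1.38e-09). The gap between the groups was several times the spread within each. Lipa, the lysosomal acid lipase of cholesteryl esters, was at 12.2, 13.2 and 13.6 CPM and at 16.0, 17.6 and 16.4 CPM (log2 fold change 0.37, SE 0.08). Asah1, the acid ceramidase, had the smallest change of the called enzyme genes, with a log2 fold change of 0.20 (SE 0.05, edgeR adjusted p = 0.0018).

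Of the lysosome membrane genes, Cln3 rose most. Cln3, which encodes a multi-pass membrane protein lost in juvenile Batten disease, was at 23.9, 25.3 and 23.2 CPM in mock and 38.1, 39.6 and 42.1 CPM in p140Cap libraries, a log2 fold change of 0.72 (SE 0.06, edgeR adjusted p = 2.4e-08). Mcoln1, the lysosomal calcium channel TRPML1, had a log2 fold change of 0.39 (SE 0.05). The related structural proteins of the lysosomal membrane, LAMP1 and LAMP2, differed in their transcripts.

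Lamp2 was at 232, 240 and 231 CPM in mock and 344, 304 and 333 CPM in p140Cap libraries (log2 fold change 0.48, SE 0.05, edgeR adjusted p = 3.86e-07). Lamp1 was at 424, 430 and 444 CPM and at 458, 468 and 456 CPM, a log2 fold change of 0.09 (SE 0.05) that missed the threshold (edgeR adjusted p = 0.0841) although its groups did not overlap. Reads of Lamp2 per read of Lamp1 were 0.547, 0.558 and 0.519 in mock and 0.751, 0.649 and 0.730 in p140Cap libraries (exact permutation test, two-sided, p = 0.1, pair picked after its values were seen). Per kilobase of annotated exon, Lamp1 was the higher of the pair in both groups, with 161 and 171 CPM per kilobase against 29.1 and 40.6 for Lamp2.

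The 3 initiation genes among the members rose. The initiation kinases ULK1 and ULK2 receive the signal from mTORC1, and ATG13 is part of their complex. Ulk1 was at 53.6, 53.5 and 54.2 CPM in mock and 73.2, 79.0 and 74.3 CPM in p140Cap libraries (log2 fold change 0.49, SE 0.05, edgeR adjusted p = 1.95e-07). Ulk2 was at 62.1, 61.8 and 61.0 CPM and at 82.5, 80.5 and 75.7 CPM (log2 fold change 0.37, SE 0.05). Atg13 had a log2 fold change of 0.31 (SE 0.05). The other subunits of the complex, read from the list of other autophagosome genes and named after their values were seen, moved less or were not called. Rb1cc1, the gene of the scaffold FIP200, had a log2 fold change of 0.13 (SE 0.06, edgeR adjusted p = 0.0464) and Atg101, which stabilizes ATG13, of -0.07 (SE 0.06, edgeR adjusted p = 0.322).

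Among the 3 members of the lipid kinase complex, Pik3c3 and Atg14 rose and Becn1 was called lower. The catalytic subunit gene Pik3c3 was at 43.5, 45.6 and 43.7 CPM in mock and 51.2, 57.8 and 53.8 CPM in p140Cap libraries (log2 fold change 0.29, SE 0.06). Atg14, whose protein directs the complex to autophagosome formation, rose from 18.4, 18.9 and 19.5 CPM to 25.1, 28.4 and 27.6 CPM (log2 fold change 0.52, SE 0.07, edgeR adjusted p = 3.76e-06). Becn1, the scaffold of the same complex, had a log2 fold change of -0.12 (SE 0.05, edgeR adjusted p = 0.0273). Its call was lost when any of 4 libraries (mock replicate 1 or 2, p140Cap replicate 2 or 3) was left out, with adjusted p between 0.0501 and 0.0815. In the list of other autophagosome genes, and named after their values were seen, the regulatory subunit gene Pik3r4 rose (log2 fold change 0.35, edgeR adjusted p = 0.000199), while the associated genes Nrbf2 (-0.08) and Uvrag (0.07) were not called.

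WIPI1 and WIPI2 bind the lipid that this kinase makes, and WIPI2 recruits the coupling machinery. Wipi1 had the largest change of the 25 autophagosome members, from 54.6, 51.1 and 54.2 CPM in mock to 98.3, 98.7 and 92.3 CPM in p140Cap libraries (log2 fold change 0.86, SE 0.05, edgeR adjusted p = 3.28e-10). Wipi2 moved less, from 104, 100 and 105 CPM to 119, 126 and 127 CPM (log2 fold change 0.26, SE 0.05). Atg2a and Atg2b, whose proteins transfer lipids into the growing membrane, were not called, with log2 fold changes of 0.01 and 0.08. Atg9a, a lipid scramblase, was called with a log2 fold change of 0.16 (edgeR adjusted p = 0.0263), but without p140Cap replicate 2 the value was 0.08 (adjusted p = 0.214), and the call was also lost without mock replicate 1 or 2 (adjusted p = 0.0521 and 0.0918). Exons of Gm29253 overlap those of Atg9a on the same strand, so its reads are uncertain too.

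The coupling machinery was the role with the fewest calls. Of its 6 genes, Atg12 was higher, Atg5 was lower, and Atg3, Atg4b, Atg7 and Atg16l1 were not called, with log2 fold changes between -0.01 and 0.13. Atg7 passed the threshold when p140Cap replicate 1 was left out (log2 fold change 0.19, edgeR adjusted p = 0.0495), and its value was 0.04 (adjusted p = 0.647) without p140Cap replicate 2. ATG12 is joined covalently to ATG5, and the pair attaches LC3 to lipid together with ATG16L1. Atg12 was at 53.0, 57.3 and 52.6 CPM in mock and 74.9, 68.5 and 71.8 CPM in p140Cap libraries (log2 fold change 0.40, SE 0.05, edgeR adjusted p = 5.43e-06). Atg5 was at 46.5, 46.6 and 47.0 CPM and at 38.0, 34.2 and 38.9 CPM (log2 fold change -0.34, SE 0.06, edgeR adjusted p = 6.54e-05). The partners therefore moved in opposite directions, and reads of Atg12 per read of Atg5 went from 1.16 ± 0.060 to 1.94 ± 0.083 (SD, n = 3 libraries each; exact permutation test, two-sided, p = 0.1, pair picked after its values were seen).

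The 5 Atg8 family genes, the substrates of that machinery, all rose. Map1lc3b was at 84.5, 85.0 and 84.9 CPM in mock and 122, 125 and 123 CPM in p140Cap libraries, a log2 fold change of 0.54 (SE 0.04, edgeR adjusted p = 1.52e-08). Map1lc3a, a less abundant LC3 gene, was at 10.8, 10.4 and 13.1 CPM and at 18.98, 21.2 and 19.98 CPM (log2 fold change 0.83, SE 0.09, edgeR adjusted p = 4.37e-07). Log2 fold changes were 0.47 for Gabarapl1, 0.40 for Gabarap and 0.19 for Gabarapl2. Per kilobase of annotated exon, mock cells held most Gabarap (116 ± 3.68 CPM per kilobase), followed by Gabarapl2 (52.4 ± 1.93), Map1lc3b (16.4 ± 0.0514), Gabarapl1 (15.2 ± 0.301) and Map1lc3a (9.84 ± 1.25; SD, n = 3 libraries each). In p140Cap cells the order was the same, from 153 ± 1.06 for Gabarap to 17.3 ± 0.951 for Map1lc3a. Gabarap and Gabarapl2 thus remained the most abundant by this measure. Exons of all coding isoforms were joined for the length, so close ranks depend on it.

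Cargo receptors link ubiquitinated cargo to Atg8 proteins, and the genes of all 3 rose. Sqstm1, the gene of p62, which is itself degraded with its cargo, was at 354, 369 and 380 CPM in mock and 431, 448 and 440 CPM in p140Cap libraries (log2 fold change 0.26, SE 0.05, edgeR adjusted p = 0.000125). Nbr1, the gene of a p62-related receptor, went from 269, 272 and 257 CPM to 369, 355 and 352 CPM (log2 fold change 0.43, SE 0.05). Optn, the gene of optineurin, went from 30.3, 31.4 and 29.3 CPM to 38.9, 36.8 and 39.6 CPM (log2 fold change 0.34, SE 0.06).

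**Figure D3:**
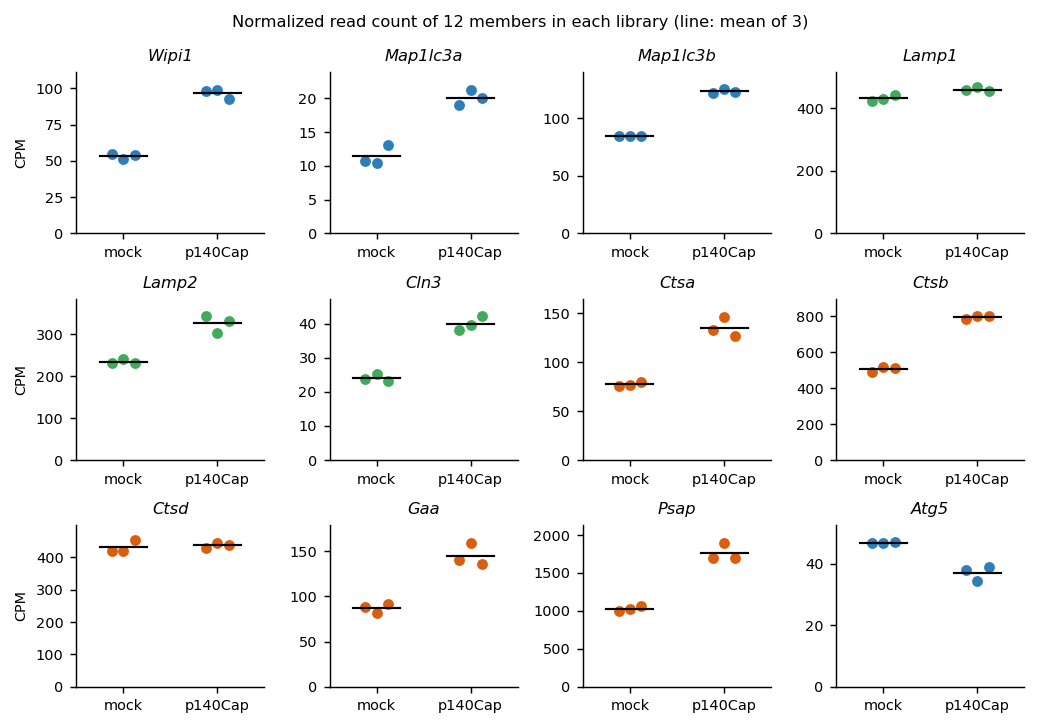
Normalized read count (CPM, y axes from 0) of 12 members in each of the 3 mock and 3 p140Cap libraries, with a line at the mean of each group. The p140Cap points lie above the mock points for all genes shown but Ctsd, whose groups overlap, and Atg5, which is lower in p140Cap cells.

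The regulator genes went different ways. Tfe3 was at 46.3, 45.4 and 46.5 CPM in mock and 54.0, 58.5 and 54.2 CPM in p140Cap libraries (log2 fold change 0.27, SE 0.05, edgeR adjusted p = 0.000208). Tfeb was at 17.6, 18.2 and 19.9 CPM and at 13.6, 17.6 and 14.9 CPM, a log2 fold change of -0.27 (SE 0.09, edgeR adjusted p = 0.013). The highest p140Cap value of Tfeb lay just under the lowest mock value, and without p140Cap replicate 1 the adjusted p was 0.0977 (log2 fold change -0.19). Mitf was rare, with 1.28, 1.28 and 1.29 CPM in mock and 2.31, 2.59 and 2.57 CPM in p140Cap libraries, and had the largest log2 fold change of the members, 0.95 (SE 0.17, edgeR adjusted p = 0.000118). Per kilobase of annotated exon, Tfe3 was the most abundant of the 3 in both groups, with 9.89 and 11.9 CPM per kilobase, against 3.47 and 2.88 for Tfeb and 0.140 and 0.271 for Mitf. Transcript levels do not show where these proteins are in the cell.

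The promoter element of these factors, the CLEAR element, is a palindrome (GTCAC followed by its reverse complement) whose core CACGTG is bound by many helix-loop-helix factors. It was looked for on both strands in RefSeq promoter windows of build GRCm38.p6, from 250 bases before to 50 bases after an annotated start site, which were at hand for 38 of the 46 members. The core was in a window of 13 of the 38 (34.2%), beside 11.9% of the 9117 tested genes with a window and 7.15% of all 32851 windows. The longer form GTCACGTG, which lies in the palindrome, was in 10 of the 38 (26.3%), beside 4.85% of tested genes and 2.25% of all windows. Many lysosomal genes are known to share the element, so a larger share among the members is no result of these data. The whole palindrome was found for Cln3 alone (2.63%, beside 0.823% and 0.326%).

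Shares for other forms that hold the core were 28.9% of members and 7.07% of tested genes for TCACGTG (3.77% of windows), and 15.8% and 2.22% for TCACGTGA (0.974% of windows). CATGTG, a related core, was in 13.2% of members, 10% of tested genes and 14.2% of windows. A match is a string of letters and not a measured binding site. The stretches of 30 bases are shown on the strand of the gene, for the 10 members with GTCACGTG, so that the surroundings of the element can be compared between genes that rose and genes that did not. Capitals mark GTCACGTG or its reverse complement CACGTGAC, and for genes with several matches only 1 is shown. The stretches of Ctsa, Cln3 and Atg7 come from start sites inside the RefSeq gene span, not from its outermost start. That span runs from 164832872 to 164841032 for Ctsa, 126571207 to 126585817 for Cln3 and 114643127 to 114860604 for Atg7.
Ctsa (chr2:164833748-164833777, plus strand): atgagcaaactGTCACGTGatgcagatgct
Ctsd (chr7:142387907-142387936, minus strand): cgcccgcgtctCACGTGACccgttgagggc
Gla (chrX:134601183-134601212, minus strand): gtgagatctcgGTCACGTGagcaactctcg
Glb1 (chr9:114401017-114401046, plus strand): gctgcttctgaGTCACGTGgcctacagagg
Cln3 (chr7:126583341-126583370, minus strand): tcacgggtactGTCACGTGacccccaacct
Lamp1 (chr8:13159122-13159151, plus strand): atgccgactggCACGTGACcacatcacgtg
Mcoln1 (chr8:3500435-3500464, plus strand): gggtcgcgcttGTCACGTGttcagttcagg
Atg3 (chr16:45158722-45158751, plus strand): ggcctccttttGTCACGTGtcctgggagag
Atg7 (chr6:114670951-114670980, plus strand): ccatattggtgGTCACGTGtgcagtaagtg
Atg14 (chr14:47568417-47568446, minus strand): aaacaaaatccCACGTGACtggccctgagc

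Among these 10 genes, Ctsa, Cln3, Atg14, Glb1, Gla and Mcoln1 rose, and Ctsd, Lamp1, Atg3 and Atg7 were not called. Of the 27 tested members with a window but without the element, 22 rose and 2 fell. The median log2 fold change was 0.44 with and 0.37 without the element. Among members with a window, it was in 3 of 20 autophagosome, 4 of 11 enzyme, 3 of 4 membrane and 0 of 3 regulator genes. The split is therefore tied to the classes, whose medians differ. Outside the members, 432 tested genes had the element, and their median log2 fold change was 0.04 with 38.2% called higher, beside 0.00 and 35.5% for the 8654 without it (counted by row, since a few symbols have several rows). Genes that rose were found on both sides of this split, which was not tested. Mcoln1 is shown over the 250 bases before its start site (chr8:3500269-3500518, plus strand, GRCm38.p6), because the element occurs there on both strands, with the first match 73 bases before the start.
Mcoln1: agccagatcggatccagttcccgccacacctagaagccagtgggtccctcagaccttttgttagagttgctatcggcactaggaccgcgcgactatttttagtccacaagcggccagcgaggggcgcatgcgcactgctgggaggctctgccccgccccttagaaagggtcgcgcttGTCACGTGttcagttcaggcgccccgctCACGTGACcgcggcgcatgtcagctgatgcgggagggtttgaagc

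Other genes of the route were read from 8 lists, with the 2 most changed called genes of each named. Their shares are to be read against the 35.2% higher and 35.9% lower over all genes tested. Of 16 other autophagosome genes, 7 (43.8%) were higher, 1 was lower and 8 were not called (edgeR), with a median log2 fold change of 0.06. Wdr45, a relative of the WIPI genes, rose by 1.09 and Atg10, which couples ATG12 to ATG5, by 0.89. Of 10 further cargo receptor genes, 8 (80%) were higher and 1 was lower, with a median of 0.34, led by Calcoco1 (1.26) and Ccpg1 (0.70), both of which are receptors for the endoplasmic reticulum. Of 13 genes of fusion with the lysosome, 7 (53.8%) were higher and 2 were lower (median 0.22). Tecpr1, a tether, had a log2 fold change of 1.03 and the membrane fusion factor Ykt6 of -0.63.

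On the lysosomal side, 18 of 26 tested other enzyme genes (69.2%) were higher and 4 were lower, with a median log2 fold change of 0.27. Ctsf, a cysteine protease, rose from 8.01 ± 0.519 to 26.0 ± 1.87 CPM (SD, n = 3 libraries each; log2 fold change 1.71, SE 0.08, edgeR adjusted p = 2.07e-11). The lysosomal nuclease gene Dnase2a fell by 1.56 on the log2 scale. Of 20 tested genes of membrane proteins and cofactors, 16 (80%) were higher and 3 were lower (median 0.30). Gm2a, the activator that lifts GM2 ganglioside to β-hexosaminidase A, rose from 27.6 ± 0.305 to 79.5 ± 1.70 CPM (log2 fold change 1.53, edgeR adjusted p = 4.05e-13), and Cd68, also used as a macrophage marker, from 2.14 ± 0.176 to 3.76 ± 0.460 CPM (SD, n = 3 libraries each).

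Genes of the proton pump that acidifies the lysosome were mixed. Of 16 V-ATPase subunit genes, 9 (56.2%) were higher, 2 were lower and 5 were not called, with a median log2 fold change of 0.19. The catalytic subunit gene Atp6v1a had a log2 fold change of 0.65 and Atp6v0a2, a membrane subunit, of -0.61. Genes that sort enzymes to the lysosome did not rise as a list, with 2 of 9 (22.2%) higher, 3 lower and a median of 0.06. Among them, Gnptab, which makes the mannose 6-phosphate tag of lysosomal enzymes, fell by 0.67 on the log2 scale, and the adaptor gene Gga2 went from 1.87 ± 0.257 to 0.207 ± 0.0648 CPM (SD, n = 3 libraries each), the latter from 4, 2 and 3 reads.

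Genes that control mTORC1 and TFEB were mixed, with 6 of 17 (35.3%) higher, which is the background share, 3 lower and a median log2 fold change of 0.05. The largest changes were those of Rragd and Flcn. Rragd, the gene of the RagD GTPase that brings TFEB-family factors to the lysosome, rose from 1.88 ± 0.375 to 12.8 ± 0.335 CPM (SD, n = 3 libraries each; log2 fold change 2.71, SE 0.12, edgeR adjusted p = 1.6e-11). Flcn, the gene of folliculin, which activates RagC and RagD toward these factors, rose from 44.6 ± 0.813 to 81.6 ± 6.03 CPM (log2 fold change 0.87, SE 0.06, edgeR adjusted p = 8.43e-10).

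**Figure D4:**
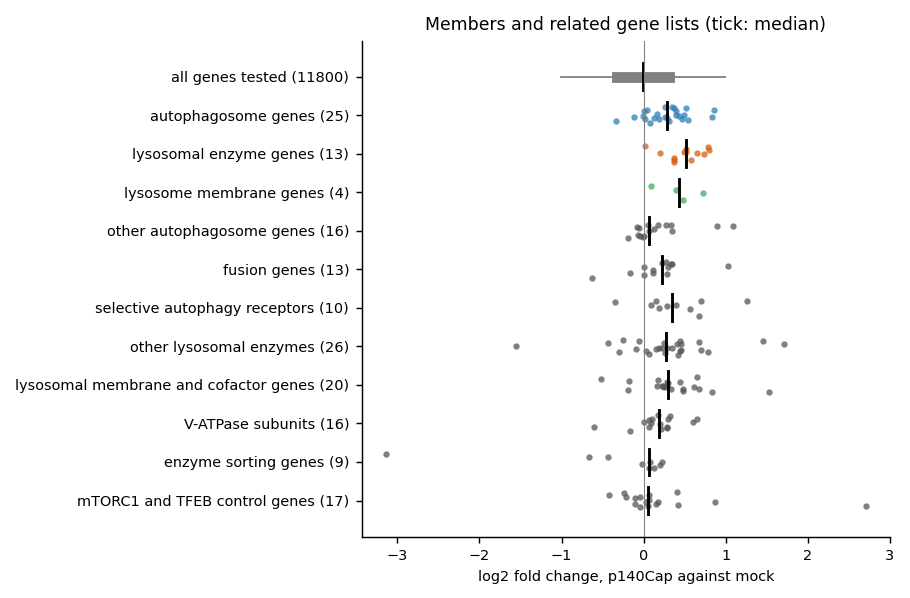
Log2 fold changes (x axis, p140Cap against mock) of the tested genes of each list, 1 point per gene with a tick at the median and the number of genes in brackets. For all 11800 genes the thick bar spans the 25th to 75th percentile and the thin line the 5th to 95th. The enzyme genes have the highest median (0.52) and the genes of mTORC1 and TFEB control the lowest of the lists (0.05).

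Of the members, Atg2a and Lipa lie on chromosome 19, whose 424 tested genes had a median log2 fold change of -0.34 while the medians of the other chromosomes lay between -0.07 and 0.06. Atg2a was at 43.2, 39.2 and 44.2 CPM in mock and 39.4, 46.7 and 41.4 CPM in p140Cap libraries, and Lipa rose, so neither stood at the level of that chromosome. Without them the medians of the autophagosome and enzyme genes were 0.30 and 0.52. Exons of other annotated genes overlap those of 28 members, for 26 of them on the other strand. The libraries were stranded, but the sources used here do not give whether counting used the strand. Without these 28 members the medians were 0.29 and 0.55, and both exclusions were chosen after the data were seen. The enzyme median then rests on Ctsh (0.37), Lipa (0.37), Gaa (0.73) and Psap (0.78) alone, which lie on either side of it. The most changed members lie, in GRCm38.p6, on chromosome 6 from 97807002 to 98021360 (Mitf), chromosome 11 from 109573521 to 109611389 (Wipi1), chromosome 2 from 155276364 to 155278073 (Map1lc3a), chromosome 2 from 164832872 to 164841032 (Ctsa) and chromosome 10 from 60277628 to 60302600 (Psap), each span covering exons and introns of a protein-coding gene.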

How the data were processed

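RNA-Seq of 3 mock and 3 p140Cap TuBo libraries was analysed. By the paper's methods, stranded libraries were sequenced on an Illumina NextSeq and processed with docker4seq. The submitters' processing notes name STAR 2.5, RSEM and mm10. The file deposited by the authors holds whole read counts, 1 column per library and without normalization, and if RSEM made them they are rounded estimates. The paper names GRCm39, so the build used for counting is uncertain.

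Counts were analysed in R 4.3.3. TMM factors, filterByExpr by group and the quasi-likelihood test of edgeR 4.0.16 were used on 11800 genes, with condition as the sole term. SEs were taken from the log2 fold change and the F statistic. Log2 CPM per library used a prior count of 2. The procedure was run on simulated data with 11723 genes tested, 200 genes changed and 1 common spread for all genes. It recovered 91% of those changed by 0.5 on the log2 scale and 95% of those changed by 1. Unchanged genes made up 3.63% of calls. In the real data 71.1% of genes were called, so the simulation does not test calls where most genes move. The mean chi-square between libraries of a group was 1.75 to 10.7, where sampling noise gives 1, so none looked like a second sampling of the same library. This does not show that they come from separate cultures.

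The members and lists were chosen with earlier results of these data known. Every member is accounted for. Values in every library are given for the regulators, for the 2 most changed called members of each role, for called members at 0.5 or more, and for Map1lc3a, Map1lc3b, Lamp1, Lamp2, Sqstm1 and Ctsd. Those of Ctsz and Atg2a were added after their values were seen. Exon lengths and overlaps came from GENCODE (GRCm39) by Ensembl identifier (98.6% of genes matched), and positions and promoters from RefSeq (GRCm38.p6) by symbol. Retreg1 was read under its older symbol Fam134b. Alternatives were RLE factors, DESeq2 1.42.0, limma-voom (limma 3.58.1), no filter, at least 10 reads in every library, leaving out each library, a replicate block and thinning to the smallest total.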

Additional observations from a re-analysis of the deposited data

How the results depend on the processing

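Of the 45 tested members, 41 kept their side of the threshold under all alternatives run. Those that did not were Tfeb, Becn1, Atg9a and Atg7, whose values without single libraries are given beside their results. No called member changed sign, but 4 uncalled ones near 0 did, Atg2a (-0.07 to 0.06), Atg3 (-0.02 to 0.06), Atg4b (-0.05 to 0.02) and Ctsd (-0.01 to 0.06). The number of members called was 35 to 37 under these alternatives, and 12 enzyme genes were called higher under each of them. The median log2 fold change of the enzyme genes (0.52) was 0.48 without a filter on low counts, where Ctsz enters and the median of all genes tested also moved, to -0.06, and 0.55 with the libraries thinned to the smallest total. Leaving out single libraries gave 0.49 to 0.54, and that of the autophagosome genes (0.29) between 0.25 and 0.33. Moves above 0.031 for the autophagosome and 0.029 for the enzyme genes exceed the SD of these medians between libraries. With the replicate number as a block, 35 members were called, and Becn1 (adjusted p = 0.0575) and Atg9a (adjusted p = 0.0587, both edgeR) were not. The numbers do not pair the libraries, since deviations of same-numbered libraries had correlations of -0.03, -0.11 and -0.06, and 0 of 6 libraries correlated best with their own number. Depth limits Mitf and Ctsz most, and 3 against 3 libraries limit the exact tests.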
